A study of Mus musculus with 2 samples.

Results

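Solute carriers are membrane proteins that move nutrients, metabolites, ions and metals across the plasma membrane and the membranes of organelles. The genes described here were chosen by symbol and abundance: genes whose symbol starts with Slc and a digit, with at least 200 unique molecular identifiers (UMIs) summed over the hashtag-assigned cells of both pools. Slc7a2, Slc7a11, Slc2a1, Slc2a3 and Slc16a3 were left out by name. This gave 149 of the 372 Slc genes among the 22597 genes measured, and 218 Slc genes stood under the minimum. The UMI totals that set membership are a description only. Just inside the minimum were Slc22a5 with 211 and Slc25a53 with 213 UMIs, and just outside were Slc37a4 with 197 and Slc2a9 with 196. Slc4a1ap, Slc7a6os and Slc9a3r1 carry such a symbol without encoding a transporter, and they are counted as members and named as such.

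The cells were donor-derived myeloid cells of mouse lung, measured in 1 droplet-based 3′ RNA library with a hashtag library from the same cells. Recipients were IM-DTR animals (CD45.1+CD45.2+) that had been irradiated and whose own lung interstitial macrophages are depleted by diphtheria toxin. They received CD45.1-CD45.2+ bone marrow from Tgfbr2 fl/fl donors, called the control pool here, or from donors that also carried LyzM-Cre (LyzM-Cre Tgfbr2 fl/fl), which form the Tgfbr2-KO pool. Both groups thus carried the floxed alleles, and all mice had 50 ng of toxin 10 days before sacrifice. The sort kept CD11b+ CD64+ donor cells of low side scatter and removed Ly6G+ and SiglecF+ cells. LyzM-Cre is driven by the lysozyme locus Lyz2 and acts in monocytes, macrophages and granulocytes, so it is not specific to interstitial macrophages. The ages and sexes of the mice are not given in the labels.

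Each pool held cells of 5 mice without a tag per mouse, so every genotype is a single pool without replicates. Tests were therefore not possible: each ratio below compares these 2 pools, and its interval covers counting error only. The control pool had 1896 cells with 16298452 gene UMIs (median 7785 per cell), and the Tgfbr2-KO pool had 2674 cells with 30729204 (median 10278). All 4887 barcodes of the hashtag table were found in the RNA matrix. Levels are UMIs per 1000000 gene UMIs (UPM) of a pool or cell state. A UMI marks 1 transcript end, so levels of different genes were compared without a length correction. Tgfbr2 itself was at 215 UPM in the control and 195 in the Tgfbr2-KO pool. Which exon is floxed is not given, and a 3′ tag outside the deleted part checks nothing. Lyz2, the locus that carries the Cre, was at 13282 UPM in the control and 5949 in the Tgfbr2-KO pool.

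Cells were put into 7 states by summed marker UMIs per 10000, with no Slc gene among the markers. The gates and their order were set after the marker distributions had been seen. The states held, in control and Tgfbr2-KO cells, 15 and 781 interferon-activated cells (at least 20 UMIs of Cxcl9, Ly6i, Ly6a, Gbp2, Iigp1 and Ccl5), 37 and 137 monocyte-marker cells with low C1q, and 47 and 95 proliferating cells. The Fn1-high state held 198 and 98 cells, the CD206+-marker state 517 and 692, the MHC class II-high state 864 and 778, and 218 and 93 cells passed no gate. Only the CD206+-marker and MHC class II-high states had at least 100 cells in both pools and were compared within the state. The interferon-activated share was 0.791% of the control and 29.2% of the Tgfbr2-KO pool, so a ratio over all cells moves with this share as well as with levels within a state. Each gate is a range of a marker sum rather than a cell type. Near the interferon gate, 61 cells lay within the fifth below it and 68 just above it.

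The sort should hold monocytes and macrophages, and the macrophage markers C1qa, C1qb, C1qc, Cd68, Mertk and Fcgr1 summed to 12245 UPM in the control and 11099 UPM in the Tgfbr2-KO pool. T or NK cell markers summed to 1.23 and 5.56 UPM, with Nkg7 and Gzma at 0 in the control. B or plasma cell markers summed to 3.5 and 2.28 UPM with Mzb1 at 0 in both pools, alveolar macrophage markers to 4.29 and 6.18, fibroblast markers to 15.5 and 4.62, and endothelial markers to 38.2 and 54.9. Neutrophil markers summed to 42.5 and 57.2 UPM, with Ly6g at 0 in the control, and dendritic cell markers to 153 and 121. Monocyte markers summed to 437 and 1376 UPM and patrolling monocyte markers to 89.8 and 182. All 6 epithelial markers had UMIs in both pools. In CD206+-marker cells they summed to 72.1 UPM in the control and 372 UPM in the Tgfbr2-KO pool, and in MHC class II-high cells to 34 and 35.1. Barcodes with at most 100 UMIs, which hold free RNA, had 102 UPM of them. The part of this signal in the ratios within CD206+-marker cells was not tested.

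In macrophages, solute carriers set what a cell can take up and what its mitochondria, lysosomes and Golgi can exchange with the cytosol. Members of SLC30 carry zinc out of the cytosol and members of SLC39 carry it in, most SLC25 proteins span the inner mitochondrial membrane, and SLC7 light chains exchange amino acids, several of them bound to the SLC3A2 heavy chain. Lung interstitial macrophages fall into CD206+ cells and CD206- cells with high MHC class II, and both arise from monocytes once their niche is empty.

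Over all cells, 18 of the 149 members were called higher in the Tgfbr2-KO pool at 1.5-fold and 12 lower, and the median log2 ratio was 0.01. The same rule called 10.8% of the 9054 genes with at least 200 UMIs higher and 6.57% lower, and their median was 0.09. The members' shares were 12.1% higher and 8.05% lower, near this background. With trimmed-mean scaling the split was 10 higher to 14 lower, and with median-ratio scaling 8 to 15. The individual members below are given with this background in mind.

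**Figure D1:**
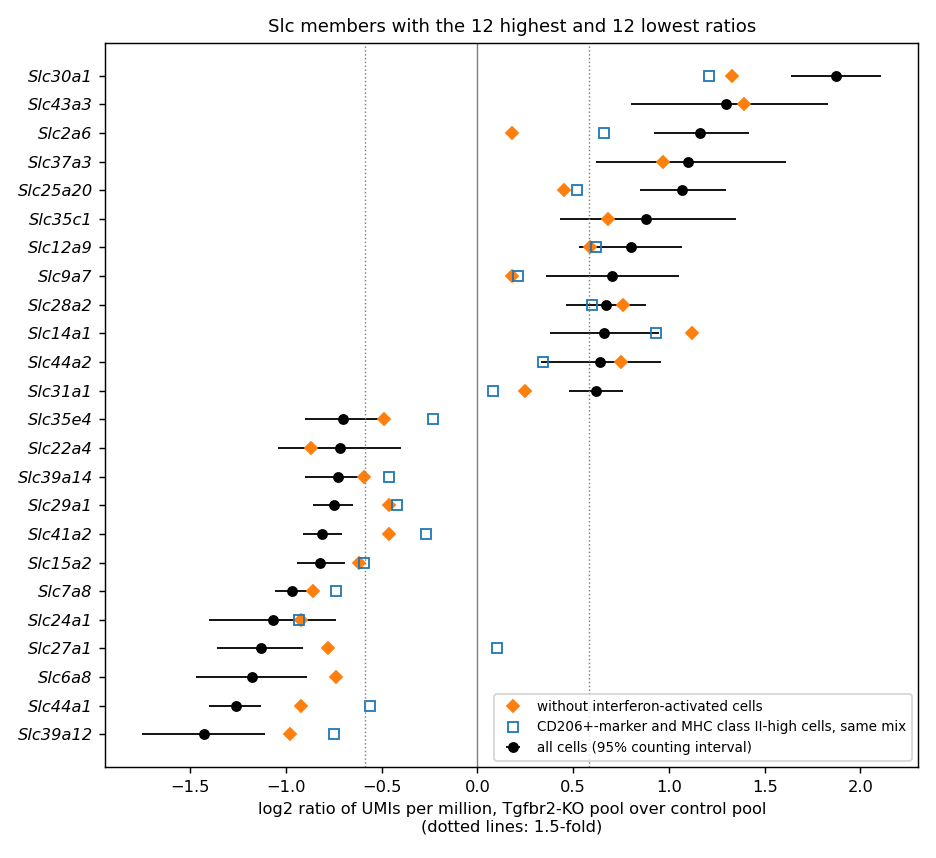
Log2 ratio of UPM in the Tgfbr2-KO pool over the control pool (x axis) for the 12 highest and 12 lowest members (y axis), with 95% counting intervals; diamonds leave out the interferon-activated cells and squares weight CD206+-marker and MHC class II-high cells to the same mix in both pools, for members with enough UMIs. Slc30a1 stays right of the 1.5-fold line in all 3 views, while Slc2a6 moves from 1.16 to 0.18 without the interferon-activated cells and Slc27a1 moves from -1.13 to 0.10 in the same mix.

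The zinc exporter Slc30a1 (ENSMUSG00000037434), which carries zinc out through the plasma membrane, had the highest ratio of all members. It was at 10.7 UPM in the control and 39.2 UPM in the Tgfbr2-KO pool, a 3.65-fold difference with an interval of 3.11 to 4.30. The Tgfbr2-KO pool was above the control in every one of the 7 states, though the smallest control state had 15 cells. In CD206+-marker cells Slc30a1 was at 12.2 UPM in the control and 22.2 in the Tgfbr2-KO pool (1.82-fold, interval 1.31 to 2.55). In MHC class II-high cells it was at 9.52 and 26.5 UPM (2.78-fold, 2.08 to 3.76). The 2 Fn1-high sets, one of which falls short of the cell minimum, were at 10.2 and 50.3 UPM.

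Slc30a1 also followed the interferon markers among the Tgfbr2-KO cells. It was at 16.1 UPM in cells with under 1 marker UMI per 10000, at 29.9 UPM with 1 to under 5, at 43.6 UPM with 5 to under 20, and at 59.9 UPM in the gated interferon-activated cells. The 4 intervals did not overlap. Control cells were at 9.95 UPM with under 1 marker UMI, at 12.4 with 1 to under 5 and at 17.5 with 5 to under 20, the last over 68 cells with a wide interval of 8.74 to 31.3. Below 1 marker UMI the Slc30a1 intervals of the pools, 8.29 to 11.8 and 13.7 to 18.9 UPM, did not overlap. These groups take in cells of all states, whose mix was not matched between the pools. Weakly marked cells are also present inside the compared states: 15.8% of the Tgfbr2-KO and 2.13% of the control CD206+-marker cells carried 5 or more marker UMIs per 10000, and 18.9% and 4.28% of the MHC class II-high cells. Without these cells the log2 ratio of Slc30a1 was 1.13 in MHC class II-high cells and 0.55, under the 1.5-fold line, in CD206+-marker cells. In clusters of a cell similarity graph (graph clusters), used in place of the MHC class II-high gate, it was 0.20, and with free RNA subtracted it was 2.12 against 1.48. Over all cells in the same mix of states it was 1.21 against 1.87.

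**Figure D2:**
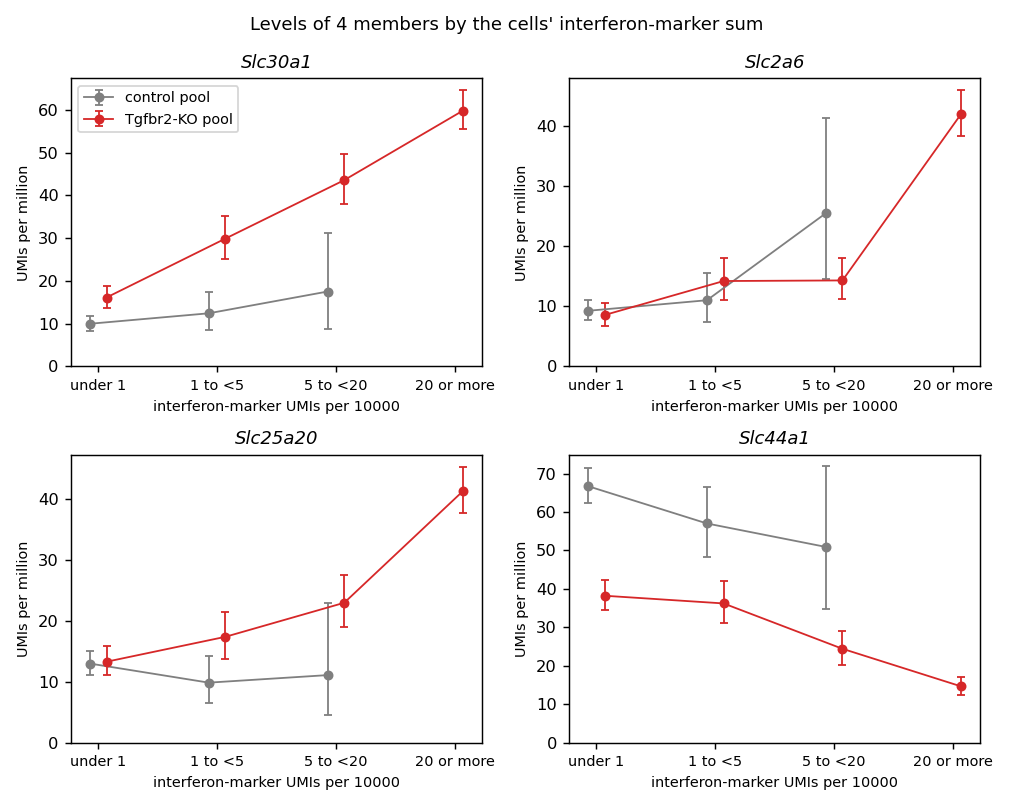
Levels in UPM (y axis) of Slc30a1, Slc2a6, Slc25a20 and Slc44a1 in cells grouped by their summed interferon-marker UMIs per 10000 (x axis), for the control pool (grey) and the Tgfbr2-KO pool (red), with exact 95% Poisson intervals; the control has no point at 20 or more because only 15 cells were there. Slc30a1 climbs over all 4 Tgfbr2-KO groups from 16.1 to 59.9, Slc2a6 reaches 42.1 only in the last one, and Slc44a1 goes from 38.2 down to 14.6.

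The stretches upstream of Slc30a1, of the sugar transporter gene Slc2a6, of the mitochondrial carrier gene Slc25a20 and of the choline transporter gene Slc44a1 are shown because these members had large ratios in opposite directions and followed the interferon markers. Each is the 250 bases before the start used for the promoter windows in GRCm38.p6: chr1:191906531-191906780 on the plus strand for Slc30a1, chr2:27027999-27028248 on the minus strand for Slc2a6, chr9:108661886-108662135 on the plus strand for Slc25a20, and chr4:53440163-53440412 on the plus strand for Slc44a1. That start can differ from the start of the gene as listed in RefSeq. Slc30a1 is listed from 191906697 and Slc44a1 from 53440387, both inside their windows, so these windows reach into the gene. The Slc2a6 window also begins inside its gene, which is listed up to 27028000. Capitals mark matches to the core of the metal response element, the site of the zinc sensor MTF1, searched as TGCACNC and TGCGCNC on both strands.
Slc30a1: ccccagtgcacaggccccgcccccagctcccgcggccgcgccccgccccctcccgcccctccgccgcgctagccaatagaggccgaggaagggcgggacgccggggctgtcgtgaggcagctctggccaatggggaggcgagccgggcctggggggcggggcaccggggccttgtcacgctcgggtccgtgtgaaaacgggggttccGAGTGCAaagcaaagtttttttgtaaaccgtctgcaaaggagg
Slc2a6: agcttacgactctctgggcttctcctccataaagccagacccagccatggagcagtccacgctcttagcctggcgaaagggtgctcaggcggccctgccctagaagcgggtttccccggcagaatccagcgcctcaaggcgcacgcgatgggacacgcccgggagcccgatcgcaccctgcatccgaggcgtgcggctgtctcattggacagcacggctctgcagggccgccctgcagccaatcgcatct
Slc25a20: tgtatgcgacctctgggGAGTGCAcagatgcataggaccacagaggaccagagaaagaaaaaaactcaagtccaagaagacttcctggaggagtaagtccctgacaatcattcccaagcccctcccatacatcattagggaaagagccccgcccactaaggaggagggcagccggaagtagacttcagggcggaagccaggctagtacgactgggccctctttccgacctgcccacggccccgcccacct
Slc44a1: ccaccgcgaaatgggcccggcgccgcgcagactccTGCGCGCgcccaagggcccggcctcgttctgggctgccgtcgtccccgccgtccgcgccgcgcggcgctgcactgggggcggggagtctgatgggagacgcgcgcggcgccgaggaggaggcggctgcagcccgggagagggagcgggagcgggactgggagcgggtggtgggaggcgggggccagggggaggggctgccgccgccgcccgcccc

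In Slc30a1 the match starts 43 bases before the start used for the window, in Slc25a20 233 bases and in Slc44a1 215 bases before it, and the Slc2a6 window holds none. Against the listed gene start at 191906697, the Slc30a1 match lies downstream, inside the gene. Such a match is frequent: it was present for 23.8% of the 27025 genes of the promoter table, for 38 of the 113 members with an entry (33.6%), for 6 of 10 of the highest members and equally for 6 of 10 of the lowest. The gamma-activated site TTCNNNGAA was found in the windows of 8.13% of all genes and 9 of the 113 members. Among them was Slc28a2, where the match starts 126 bases before the start used for its window. The core of the interferon-stimulated response element, searched on both strands like the others, was found for 3.46% of all genes and 1 of the 113 members. In these windows none of the 4 stretches shown held either interferon motif.

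The metal carriers as a group leaned neither way. Of 25 members for metals and heme, 2 were called higher and 3 lower over all cells, against 10.8% and 6.57% of all genes. Their median log2 ratio was -0.02, against 0.09 over all genes. The copper importer Slc31a1, the other one called higher, was at 34.6 UPM in the control and 53.1 in the Tgfbr2-KO pool (1.53-fold, 1.39 to 1.69). The pools were close within both compared states: the level was 46.5 and 47.6 UPM within CD206+-marker cells, 29 and 31.7 within MHC class II-high cells, and 73.3 in the interferon-activated cells of the Tgfbr2-KO pool. Slc31a1 lost its call without the interferon-activated cells, at a log2 ratio of 0.25, and under both other scalings. Slc30a7, which loads zinc into the Golgi, was at 26.9 and 32.5 UPM over all cells and was called higher within MHC class II-high cells, at 19.3 and 30 UPM (1.55-fold, 1.24 to 1.94).

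The metal importers called lower were Slc39a12, Slc41a2 and Slc39a14. Slc39a14, which takes up zinc and iron that is not bound to transferrin, was at 32.2 UPM in the control and 19.4 in the Tgfbr2-KO pool, 1.66-fold lower (interval 1.47 to 1.87). Within CD206+-marker cells it was at 46.5 and 27.8 UPM, and within MHC class II-high cells the levels were alike at 16.2 and 16.3. Slc41a2, of a family of magnesium transporters, was at 96.3 and 54.8 UPM over all cells, but at 125 and 102 within CD206+-marker cells and 59.5 and 50.4 within MHC class II-high cells, neither past 1.5-fold. The zinc importer Slc39a12 was at 12.1 and 4.52 UPM over all cells (2.69-fold lower, 2.15 to 3.36). Its 198 control UMIs came from 124 cells, and its ratio was unstable. Thinning to 3000 UMIs left out 80 control and 83 Tgfbr2-KO cells with fewer UMIs. In the thinned cells the log2 ratio of Slc39a12 was -0.38 over all cells and turned to 0.67 in CD206+-marker cells. No UMI minimum was set for these thinned ratios. Slc11a1, the metal transporter of phagosomes, was at 153 and 206 UPM, under the 1.5-fold line.

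Genes that handle metals beside these carriers came from a list of transporter partners. Of these 27 were counted, 2 higher and 4 lower, against 10.8% and 6.57% of all genes, with a median log2 ratio of 0.02. The zinc-binding metallothioneins Mt1 and Mt2 were among the lower ones, opposite to Slc30a1. Mt2 was at 347 UPM in the control and 168 UPM in the Tgfbr2-KO pool, and at 184 and 83.9 within MHC class II-high cells, but at 600 and 498 within CD206+-marker cells. Mt1 was at 3426 and 2175 UPM over all cells, at 2838 and 1891 within MHC class II-high cells and at 5745 and 5579 within CD206+-marker cells. Mtf1, which encodes the zinc-sensing factor, was at 12 and 14.8 UPM. Npc1, which exports cholesterol from lysosomes, was at 78.1 and 47.3. The partners with the highest ratios were Emb, an accessory protein of monocarboxylate carriers, at 72.3 and 135 UPM, the mitochondrial pore Vdac2 at 189 and 288, and Ostm1, a subunit of a lysosomal chloride exchanger, at 14.7 and 21.3 and not called.

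Of the 29 SLC25 members, grouped as mitochondrial carriers by family number, 4 were called higher and 0 lower, near the 10.8% and 6.57% of all genes. Of the 29, 22 had a ratio above 0, with a median log2 ratio of 0.30 against 0.09 over all genes. Their summed level was 1243 UPM in the control (interval 1226 to 1260) and 1551 in the Tgfbr2-KO pool (1537 to 1565). The same sum was 1161 and 1376 UPM within MHC class II-high cells, 1198 and 1298 within CD206+-marker cells, and 1768 in the interferon-activated cells of the Tgfbr2-KO pool. The median log2 ratio was 0.30 over the 23 counted within MHC class II-high cells and 0.16 over the 21 counted within CD206+-marker cells. All genes counted in these states had medians of 0.13 and 0.04. Without the interferon-activated cells the SLC25 median was 0.20 against 0.09 over all genes, with 24 of 29 above 0 and none called. The share of all genes with a ratio above 0 was not counted.

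**Figure D3:**
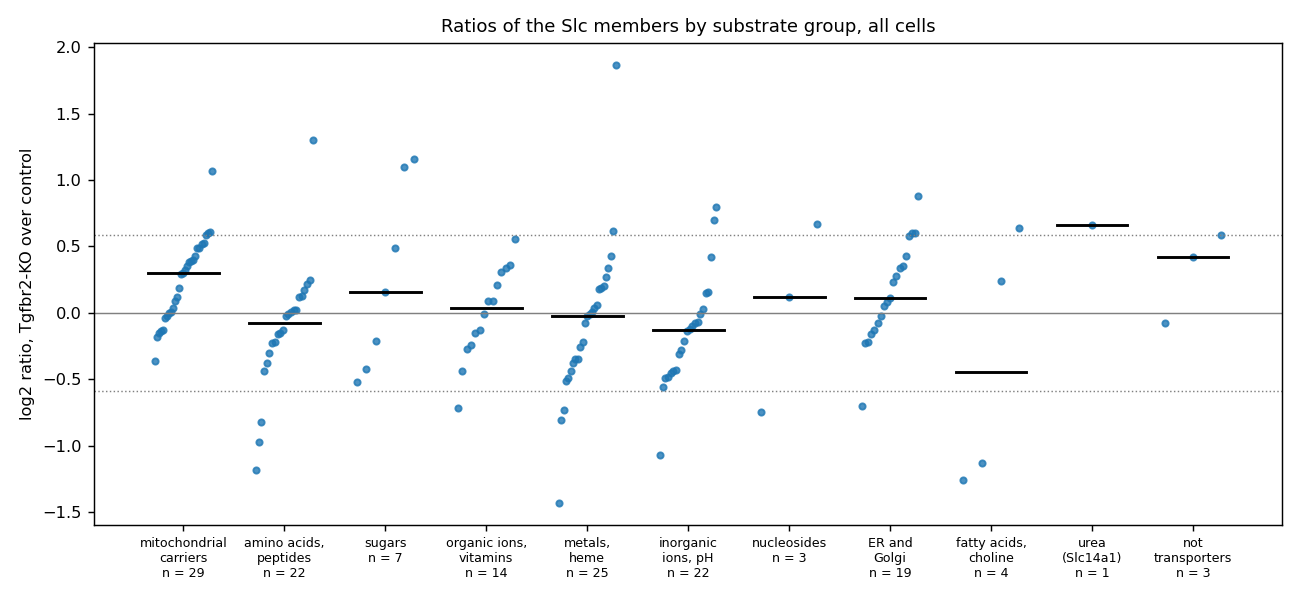
Log2 ratio of the Tgfbr2-KO pool over the control pool for each of the 149 members (points, y axis) by substrate group (x axis, with the number of members); bars are group medians and dotted lines mark 1.5-fold. Mitochondrial carriers have a median of 0.30 with 22 of 29 members above 0, inorganic ion carriers a median of -0.13 with 16 of 22 below 0. The median over all genes was 0.09.

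Slc25a20, the exchanger of carnitine and acylcarnitine that feeds fatty acid oxidation, had the highest ratio of the mitochondrial carriers. It was at 12.4 UPM in the control and 26.1 in the Tgfbr2-KO pool (2.10-fold, 1.80 to 2.47). Its high level belonged to 2 states, the interferon-activated cells of the Tgfbr2-KO pool at 41.4 UPM and the monocyte-marker cells at 38.9 in the control and 51.8 UPM in the Tgfbr2-KO pool. Within MHC class II-high cells it was at 10.6 and 14.9 UPM (1.41-fold, 1.04 to 1.93), and in CD206+-marker cells at 7.28 and 10.9 on too few UMIs to be counted. Without the interferon-activated cells its log2 ratio was 0.45, under the line. In cells with under 1 interferon-marker UMI per 10000 Slc25a20 was at 13 and 13.3 UPM, with overlapping intervals.

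The adenine nucleotide exchanger Slc25a5, which passes ATP out of mitochondria and ADP in, is one of the most abundant members. It was at 273 UPM in the control and 416 in the Tgfbr2-KO pool (1.52-fold, 1.47 to 1.58), at 252 and 331 within MHC class II-high cells and at 233 and 246 within CD206+-marker cells. It reached 541 UPM in the interferon-activated cells, and its call was lost without them (log2 ratio 0.32) and in the same mix of states (0.27). Slc25a5 also lost the call with trimmed-mean (0.54) and median-ratio scaling (0.52), the mean of per-cell shares (0.50) and thinned cells (0.50). Its paralogue Slc25a4 was at 94.2 and 91.4 UPM. The phosphate carrier Slc25a3 was at 348 and 443 UPM, the highest level of all members in the Tgfbr2-KO pool, and under the 1.5-fold line.

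The glutamate carrier Slc25a22, at a lower level, was also called higher, at 4.11 and 6.25 UPM. Its call was lost without the interferon-activated cells, at a log2 ratio of 0.29. Within MHC class II-high cells Slc25a46, an outer-membrane protein of mitochondrial dynamics, was at 9.07 and 15.6 UPM (1.72-fold, 1.25 to 2.39). The citrate carrier Slc25a1 was at 16.8 and 23.6 UPM and the aspartate and glutamate carrier Slc25a12 at 17.8 and 25.4, both under the line over all cells. Its paralogue Slc25a13 went the other way. Slc25a13 was at 14.7 and 11.4 UPM over all cells and at 12.5 and 7.5 UPM within CD206+-marker cells (1.66-fold lower, 1.10 to 2.51), the only mitochondrial carrier called lower there. That call was lost in graph clusters, at a log2 ratio of -0.19.

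Among carriers of sugars, 2 of 7 were called higher and 0 lower, against 10.8% and 6.57% of all genes. Their median log2 ratio was 0.16, against 0.09 over all genes. Slc2a6, the glucose transporter GLUT6, which is found on lysosomes, was at 10.2 UPM in the control and 22.9 in the Tgfbr2-KO pool (2.24-fold, 1.89 to 2.67). It had the highest ratio of all members between the interferon-activated and the other cells of the Tgfbr2-KO pool, at 42.1 and 11.5 UPM. Levels were also high in monocyte-marker cells, at 35.3 and 38.8 UPM, and in Fn1-high cells of the control, at 25.4 UPM against 16 in the Tgfbr2-KO pool. CD206+-marker cells held almost none, at 2.82 and 2.39 UPM. Over all cells without the interferon-activated state the log2 ratio of Slc2a6 was 0.18, under the line. Within MHC class II-high cells it was at 6.95 and 12.5 UPM (1.80-fold, 1.25 to 2.62), a call lost with thinned cells, doubled gates or graph clusters. With free RNA subtracted its log2 ratio moved the other way, from 0.85 to 2.04 in these cells and from 1.16 to 1.79 over all cells. The amount subtracted was an upper bound. Barcodes of free RNA had 36.8 UPM of Slc2a6, above the 6.95 UPM of control MHC class II-high cells. Slc37a3, of the sugar-phosphate exchanger family, was at 2.70 and 5.79 UPM and near the UMI minimum. Slc45a4 was called higher within CD206+-marker cells, at 21.1 and 35.6 UPM (1.68-fold, 1.31 to 2.17).

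Of 22 amino acid and peptide carriers, 1 was called higher and 3 lower, against 10.8% and 6.57% of all genes. Their median log2 ratio was -0.07, against 0.09 over all genes. Slc7a8, the light chain LAT2 for large neutral amino acids, was at 148 UPM in the control and 75.3 in the Tgfbr2-KO pool, 1.96-fold lower (interval 1.85 to 2.08). It was lower within CD206+-marker cells too, at 165 and 85.4 UPM (1.94-fold, 1.73 to 2.17), where it had the lowest ratio of all counted members. Within MHC class II-high cells it was at 106 and 73.7 UPM, which reached 1.5-fold only with trimmed-mean or median-ratio scaling. In the control, Fn1-high cells had the most Slc7a8, at 234 UPM against 127 UPM in the Tgfbr2-KO pool, and monocyte-marker cells the least, at 31.8 and 34.5. The call over all cells held in the same mix of states, at 131 and 78.6 UPM.

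The heavy chain Slc3a2, which brings such light chains to the surface, did not differ, at 377 and 375 UPM. The light chains Slc7a5 (9.20 and 9.08 UPM), Slc7a6 (7.12 and 7.22) and Slc7a7 (32 and 32.1) were also alike. Slc7a8 was thus the only one of these 4 light chains past 1.5-fold.

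Slc15a2, the proton-coupled carrier PEPT2 for di- and tripeptides, was at 62.2 UPM in the control and 35.2 in the Tgfbr2-KO pool, 1.77-fold lower (interval 1.62 to 1.92). It had the lowest ratio of the members counted within MHC class II-high cells, at 55.5 and 30 UPM (1.85-fold, 1.56 to 2.19). Within CD206+-marker cells, where its level was highest, it was at 81.5 and 63.4. The lysosomal peptide carriers of the same family were under the line, Slc15a3 at 200 and 234 UPM and Slc15a4 at 35.3 and 30.4. The creatine transporter Slc6a8 was at 13.3 and 5.89 UPM. It was a gene of Fn1-high cells, at 35.7 UPM in the control and 53.1 in the Tgfbr2-KO pool, and stood at 7.75 and 3.19 within CD206+-marker cells on too few UMIs to be counted. The taurine transporter Slc6a6 was abundant and alike, at 254 and 233 UPM. Slc43a3, a purine nucleobase transporter despite its family, was the 1 member called higher among the 22 grouped as amino acid and peptide carriers, at 2.45 and 6.05 UPM. Its highest levels were in proliferating cells, at 23.5 UPM in the control and 32.9 UPM in the Tgfbr2-KO pool.

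Lists of other genes that respond to or sense amino acids were short. In the amino acid response list 7 were counted, 2 higher and 0 lower, against 10.8% and 6.57% of all genes. The median log2 ratio of the 7 was 0.38, against 0.09 over all genes. Psat1, an enzyme of serine synthesis, was at 3.99 and 10.4 UPM, the stress factor Ddit3 at 32.6 and 56.1, and the alanyl-tRNA synthetase gene Aars at 16.1 and 21.8, not called. Atf4 was at 209 and 180 UPM, Nupr1 at 98.1 and 98.0, and Sesn2 at 10.4 and 11.9. Of 11 counted genes for amino acid sensing at the lysosome 0 were called, with a median of 0.23. The highest of them, Lamtor5, Lamtor1 and Mtor, had log2 ratios of 0.45, 0.37 and 0.37, and the lowest, Rraga, Rptor and Rragc, -0.27, -0.13 and 0.07.

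Carriers of choline and fatty acids were few. Of the 4, 1 was called higher and 2 lower, against 10.8% and 6.57% of all genes. A ratio above 0 was found for 2 and below 0 for 2, and the 2 called lower were among the lowest members. Slc44a1, the choline transporter CTL1 of plasma membrane and mitochondria, was at 64.2 UPM in the control and 26.8 in the Tgfbr2-KO pool, 2.40-fold lower (interval 2.19 to 2.63). The control was above the Tgfbr2-KO pool in every one of the 7 states, though on few UMIs in the smallest ones. All 4 carriers of this group together had 8 UMIs in the 15 interferon-activated control cells and 35 in the 37 monocyte-marker control cells. Slc44a1 was highest in Fn1-high cells, at 118 and 42.6 UPM, and in cells that passed no gate, at 91.5 and 56.8. Within CD206+-marker cells it was at 52.4 and 36.1 UPM, just short of the line, and within MHC class II-high cells at 46.2 and 30.8 (1.5-fold lower, 1.26 to 1.79), a call lost with an assignment probability of at least 0.99, in graph clusters and without cells of 5 or more interferon-marker UMIs. In the same mix of both states the log2 ratio of Slc44a1 was -0.56, under the line. Among Tgfbr2-KO cells Slc44a1 was at 38.2 UPM with under 1 interferon-marker UMI per 10000 and at 36.2, 24.4 and 14.6 UPM in the next groups, with the first pair of intervals overlapping. With under 1 marker UMI the level was 66.7 UPM in the control (62.3 to 71.4) and 38.2 in the Tgfbr2-KO pool (34.4 to 42.4). These groups take in cells of all states, whose mix was not matched between the pools.

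Its family member Slc44a2 was a gene of monocyte-marker cells. It was at 98.9 UPM in the control and 75.5 UPM in the Tgfbr2-KO pool there, and between 4.21 and 12.2 UPM in every other state of either pool. Over all cells Slc44a2 was at 7.18 and 11.2 UPM and called higher (1.56-fold, 1.26 to 1.94), while monocyte-marker cells made up 1.95% of the control and 5.12% of the Tgfbr2-KO pool. Slc27a1, a fatty acid transport protein and acyl-CoA synthetase, was a gene of Fn1-high cells: 67.9 UPM in the control and 34.8 UPM in the Tgfbr2-KO pool, against 9.40 and 10.5 in CD206+-marker and 9.37 and 9.68 in MHC class II-high cells. Over all cells it was at 21.7 and 9.89 UPM (2.20-fold lower, 1.88 to 2.57). In the same mix of CD206+-marker and MHC class II-high cells the log2 ratio of Slc27a1 turned to 0.10. Fn1-high cells were 10.4% of the control and 3.66% of the Tgfbr2-KO pool.

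Of 22 carriers of inorganic ions and protons, 2 were called higher and 1 lower, against 10.8% and 6.57% of all genes. A ratio below 0 was found for 16 of the 22, and their median log2 ratio was -0.13, against 0.09 over all genes. Slc24a1, an exchanger of sodium for calcium and potassium, was at 10.3 UPM in the control and 4.91 in the Tgfbr2-KO pool, 2.10-fold lower (interval 1.67 to 2.63) and at 12.2 and 6.86 UPM within MHC class II-high cells (1.79-fold lower, 1.24 to 2.59). In graph clusters the latter log2 ratio turned to 0.02. Slc12a9, of the cation-chloride cotransporter family, was called higher at 9.14 and 15.9 UPM (1.74-fold, 1.45 to 2.11), and within MHC class II-high cells at 9.37 and 14.8, a call lost under both other scalings. The Golgi and endosomal sodium/proton exchanger Slc9a7 was at 5.83 and 9.47 UPM. It was highest in the interferon-activated cells at 14.3 UPM, and without them its log2 ratio was 0.18. The Slc9a7 call was also lost in the same mix of states (0.21), with the mean of per-cell shares (0.40) and with thinned cells (0.56). The sodium/calcium exchanger Slc8a1 was alike in the pools, at 353 and 350 UPM, and had its highest level in monocyte-marker cells, at 537 and 594 UPM.

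Slc9a9, an endosomal sodium/proton exchanger, was the member with the highest level in the control, at 395 UPM, and was at 268 UPM in the Tgfbr2-KO pool. That difference, 1.47-fold, was just under the line (log2 ratio -0.56). It passed the line with trimmed-mean scaling (-0.63), median-ratio scaling (-0.64) and free RNA subtracted (-0.62), and was -0.32 with per-cell shares, -0.23 with thinned cells, -0.16 in the same mix of states and -0.13 without the interferon-activated cells. Slc9a9 was concentrated in CD206+-marker cells, at 801 UPM in the control and 744 in the Tgfbr2-KO pool, and the pools differed by less than 1.5-fold there. The other states of both pools lay between 92.8 and 308 UPM.

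Nucleoside carriers were split. Slc29a1, the equilibrative nucleoside transporter ENT1, was at 90.9 UPM in the control and 53.9 in the Tgfbr2-KO pool, 1.69-fold lower (interval 1.57 to 1.81), with 94.5 and 70.4 within CD206+-marker and 80.5 and 60.4 within MHC class II-high cells. Neither state passed the line. The concentrative carrier Slc28a2 was at 15.9 and 25.3 UPM over all cells and at 28.2 and 44.7 within CD206+-marker cells (1.58-fold, 1.27 to 1.98). Slc29a3, which releases nucleosides from lysosomes, was at 61.5 and 66.9 UPM.

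Of 14 carriers of monocarboxylates, organic ions and vitamins, 0 were called higher and 1 lower, against 10.8% and 6.57% of all genes. The lower one was Slc22a4, which carries ergothioneine. Slc22a4 was at 9.39 UPM in the control and 5.69 UPM in the Tgfbr2-KO pool. Its levels were 32.3 and 24.9 UPM in Fn1-high cells and at most 5.17 in CD206+-marker cells, and its call was lost with the stricter cell filter, at a log2 ratio of -0.40. The dicarboxylate carrier Slc13a3 was alike over all cells, at 13.9 and 14.8 UPM, while within CD206+-marker cells it was at 11.3 and 24.1 UPM (2.14-fold, 1.53 to 3.02), the highest ratio counted there. In MHC class II-high cells it was at 19.8 and 22.2 UPM.

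Of 19 carriers of nucleotide sugars and acetyl-CoA in the ER and Golgi, 3 were called higher and 1 lower, against 10.8% and 6.57% of all genes. Slc35c1, the GDP-fucose carrier, was at 3.25 and 5.99 UPM, and Slc35b1, which brings ATP into the ER, at 27.4 and 41.5 (1.52-fold, 1.36 to 1.69). The Slc35b1 call was lost without the interferon-activated cells (log2 ratio 0.30) and in the same mix of states (0.25). Slc35d2 was at 4.17 and 6.35 UPM. Slc35e4 was the lower one, at 22.6 and 13.9 UPM, and it was high in Fn1-high cells at 44.8 and 37.6 UPM. Its call was lost without the interferon-activated cells (log2 ratio -0.49) and in the same mix of states (-0.23). The urea transporter Slc14a1, the one member outside these groups, was at 8.34 and 13.2 UPM over all cells. It was a gene of CD206+-marker cells, where it was at 18.8 UPM in the control and 38.8 in the Tgfbr2-KO pool (2.06-fold, 1.6 to 2.69). Of the 3 members that are no transporters, the scaffold gene Slc9a3r1 was called higher at 35.8 and 54.0 UPM, Slc4a1ap was called higher within MHC class II-high cells at 5.59 and 9.14, and Slc7a6os was at 14.2 and 13.4. The Slc9a3r1 call was lost without the interferon-activated cells (log2 ratio 0.37) and in the same mix of states (0.40).

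Within CD206+-marker cells 110 members were counted, of which 6 were higher and 4 lower, against 6.44% and 4.66% of the 7185 genes counted there. The higher ones were Slc13a3, Slc14a1, Slc9a4, Slc30a1, Slc45a4 and Slc28a2, and the lower ones Slc7a8, Slc39a12, Slc39a14 and Slc25a13. Slc9a4, a plasma membrane sodium/proton exchanger, was at 8.46 and 15.5 UPM (1.83-fold, 1.24 to 2.76) in these cells while its ratio over all cells was below 0. Within MHC class II-high cells 120 members were counted, 8 higher and 3 lower, against 7.41% and 2.52% of 7588 genes. Slc30a1 was the only carrier called higher in both states besides Slc14a1, which was at 5.59 and 8.47 UPM in the latter with a log2 interval that includes 0 (-0.01 to 1.23). No member was called lower in both. The median log2 ratio of members and of all genes was 0.15 and 0.13 in MHC class II-high cells, and trimmed-mean and median-ratio scaling shifted all ratios there by 0.12 and 0.14. They turned the 8 higher and 3 lower calls into 4 and 6 and into 3 and 7. Slc41a1, a magnesium exporter, was at 14.2 and 9.54 UPM there and passed the line with both scalings.

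With the 2 compared states weighted to the same mix in both pools (42.4% CD206+-marker and 57.6% MHC class II-high), 9 of 141 counted members were higher and 4 lower, against 6.57% and 2.65% of all counted genes. Of the 18 members called higher over all cells 6 remained, and of the 12 lower 4. Others had too few UMIs to be counted in this mix, so their calls were neither kept nor lost. These were Slc43a3 (log2 ratio 1.10), Slc37a3 (0.85), Slc35c1 (0.68) and Slc25a22 (0.50) of the higher, and Slc6a8 (-0.82) and Slc22a4 (-0.97) of the lower. Leaving out the interferon-activated cells, 9 of 149 were higher and 9 lower, against 7.33% and 3.59% of genes. All 9 lower calls and all 9 higher ones were among those over all cells. The highest ratios without this state were those of Slc43a3 (log2 ratio 1.39), Slc30a1 (1.33), Slc14a1 (1.12) and Slc37a3 (0.97), and the lowest those of Slc39a12 (-0.98), Slc44a1 (-0.92), Slc24a1 (-0.92) and Slc22a4 (-0.87).

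**Figure D4:**
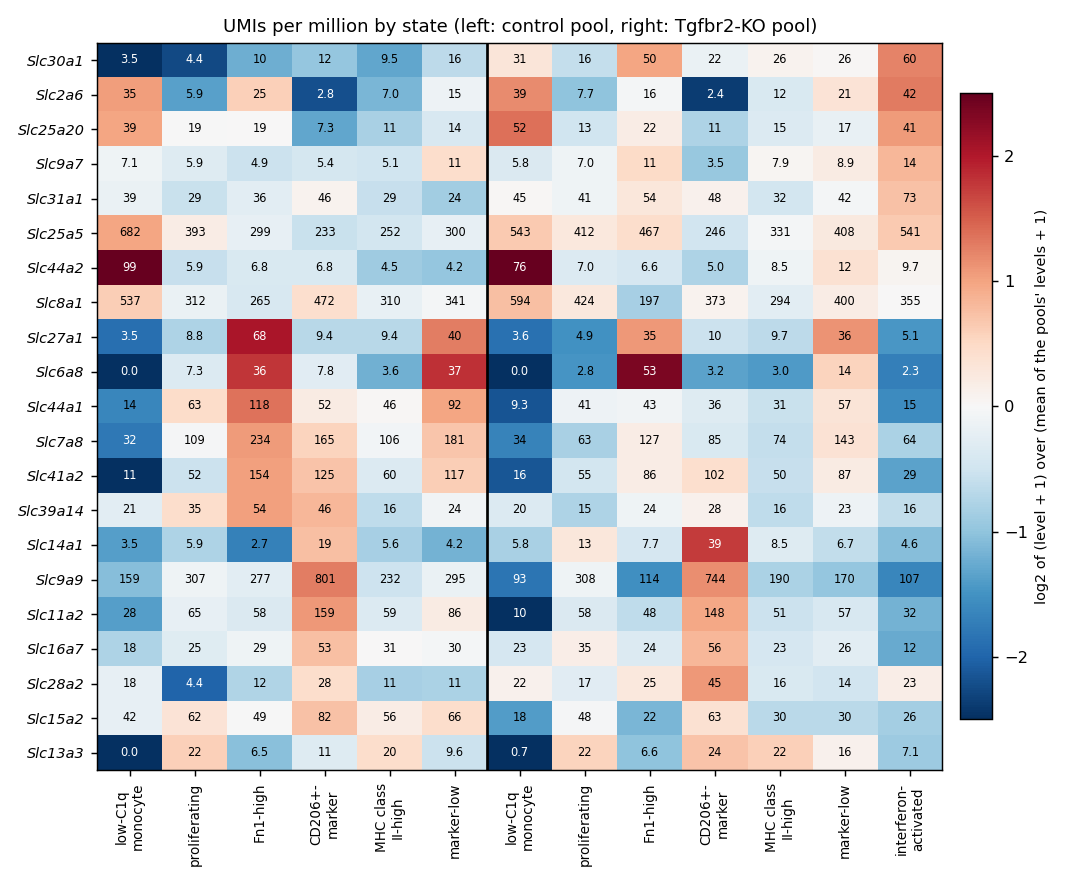
Levels in UPM (numbers) of 21 members (rows) in each gated state (columns), control pool left of the line and Tgfbr2-KO pool right of it; colours give the log2 of the level plus 1 over the mean of both pools' levels plus 1, and the 15 interferon-activated control cells are not shown. Slc44a2 stands out in monocyte-marker cells (98.9 and 75.5), Slc27a1 in Fn1-high cells (67.9 and 34.8), Slc9a9 in CD206+-marker cells (801 and 744) and Slc2a6 in interferon-activated cells (42.1).

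The states differed from each other in their carriers within a pool, as they did in genes at large, which the control pool alone shows without any comparison of genotypes. In Fn1-high cells, 28 of 132 counted members were at least 1.5-fold above the other control cells and 9 below. These shares of 21.2% and 6.82% stand against 17.6% and 8.74% of genes. Slc27a1, Slc35e4, Slc25a37 and Slc44a1 led those with at least 100 UMIs in the state. Slc25a37, which brings iron into mitochondria, was at 41.7 UPM against 17.3 in other control cells. In CD206+-marker cells 21 of 132 were above and 10 below (15.9% and 7.58%), against 9.78% and 9.65% of genes. Slc9a9 led, followed by Slc11a2, which carries iron out of endosomes and was at 159 UPM against 62.1, Slc28a2 at 28.2 against 11.5, and the potassium-chloride cotransporter Slc12a7 at 29.6 against 12.2. In the Tgfbr2-KO pool the leaders of that state were Slc14a1, Slc9a9, Slc11a2 and the pyruvate and lactate carrier Slc16a7, which was at 55.7 against 18.8 UPM. In MHC class II-high cells of the control 1 of 132 was above and 46 below (0.758% and 34.8%), against 2.27% and 23.7% of genes. The same state of the Tgfbr2-KO pool had 4 of 149 above and 23 below (2.68% and 15.4%), against 2.90% and 13.7%. Slc13a3 led in both pools. Slc41a3, which carries magnesium in mitochondria, was at 15.3 and 15.1 UPM, Slc25a33 at 113 and Slc29a3 at 68.9 in the control, and Slc7a1 at 41.9 and Slc44a1 at 30.8 in the Tgfbr2-KO pool. With doubled gates the log2 ratio to the other cells turned negative for Slc41a3 in the control (from 0.29 to -0.11) and, in the Tgfbr2-KO pool, for Slc7a1 (0.28 to -0.01) and Slc44a1 (0.27 to -0.22). Control cells that passed no gate were led by Slc44a1, Slc4a7 at 117 UPM, Slc7a8 at 181 and Slc41a2 at 117, the last with a log2 ratio that went from 0.31 to -0.02 with doubled gates.

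In the interferon-activated cells of the Tgfbr2-KO pool, 12 members were above and 32 below the other cells of that pool (8.05% and 21.5%), against 9.10% and 15.5% of genes. The 12 included Slc2a6, Slc25a20, Slc30a1, Slc9a7, Slc31a1 and Slc25a5, and at the bottom of the 32 were Slc26a9 at 1.04 against 5.82 UPM and Slc14a1 at 4.61 against 18.4. In monocyte-marker cells of the same pool 23 were above and 44 below (15.4% and 29.5%), against 16% and 23.8% of genes. Slc44a2 led with 75.5 against 8.15 UPM, followed by Slc8a1, by the mitochondrial sodium/calcium exchanger Slc8b1 at 110 against 68.1, and by the amino acid carrier Slc43a2 at 85.6 against 61.5. Each of these contrasts compares cells of 1 library, so it describes that pool.

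The ABC transporters, which pump substrates with ATP, are another family of membrane carriers. Of 25 counted, 0 were higher and 6 lower, against 10.8% and 6.57% of all genes, with a median log2 ratio of 0.02. Abcb4, which exports phosphatidylcholine, was at 8.84 UPM in the control and 2.64 UPM in the Tgfbr2-KO pool. Abcc1, which exports glutathione conjugates, was at 113 and 47.7 UPM, and Abca1, which exports cholesterol, at 690 and 329. The ratios of all 3 were below 0 within both compared states, with log2 values of -1.56, -1.15 and -0.54 in CD206+-marker and -0.79, -0.83 and -0.75 in MHC class II-high cells. Abcc5, Abcb8 and Abcg3 had the highest ratios, with log2 values of 0.51, 0.47 and 0.44.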

How the data were processed

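Gene counts are those the authors deposited, as UMIs per gene and barcode from Cell Ranger 8.0.0 per the file headers. Cell Ranger 8.0, the GRCm38 build and Seurat 5.1.0 are listed per the submitters' processing notes, without an annotation version. The pool of each barcode came from the deposited hashtag table, whose assignment probabilities are fractions made by the authors and whose deposited hashtag values are log10 of the count plus 1. Barcodes assigned to more than 1 hashtag (96) were left out, doublets within a hashtag cannot be seen that way, and no doublet caller was run. Cells needed at least 1000 UMIs, 500 genes and at most 10% mitochondrial UMIs, which removed 101 of 4671.

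UMIs were summed per pool and state and divided by all gene UMIs of those cells. Levels have exact 95% Poisson intervals and ratios conditional binomial ones. A gene was called at 1.5-fold, with at least 200 UMIs over all cells or 100 within a state. Genes named are the 12 highest and 12 lowest members over all cells, 5 and 5 in each compared state, 4 per state over other cells with at least 100 UMIs there, the 6 of highest level, and 3 and 3 of each other list. Others were named after their values were seen, to describe a group. The members and lists were chosen with earlier results of these data known. Alternatives changed the cell filter, assignment cut, scaling, depth, gates, states and free RNA. Promoter windows were from RefSeq (GRCm38.p6). Python 3.11.15, numpy 2.4.6, scipy 1.17.1, pandas 2.3.3 and matplotlib 3.10.9 were used, and the counting was tested on simulated data. A result for 1 member is not reported here.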

Additional observations from a re-analysis of the deposited data

How the results depend on the processing

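With 1 pool per genotype no replicate could be left out, and intervals cover counting error only. No paired analysis was possible because each genotype is 1 pool. Over all cells the 18 higher calls became 10 with trimmed-mean scaling, 8 with median-ratio scaling, 11 with the mean of per-cell shares, 5 at 2-fold, 7 with at least 1000 UMIs, 9 without the interferon-activated state and 9 in the same mix of states. The 12 lower calls became 5 at 2-fold, 6 with at least 1000 UMIs and 4 in the same mix. Only 141 of the 149 members were counted in the same mix, so some calls could not be kept there. Within CD206+-marker cells, thinning to 3000 UMIs per cell left 2 higher and 2 lower calls, and doubled gates gave 7 lower. Within MHC class II-high cells the higher calls were 4 with trimmed-mean scaling, 3 with median-ratio scaling, 2 with thinning, 2 in graph clusters, 4 without cells of 5 or more interferon-marker UMIs per 10000, and 19 after free RNA was subtracted. The lower calls there were 6 with trimmed-mean scaling, 7 with median-ratio scaling and 1 without those interferon-marked cells. Among called ratios of single genes, 3 changed sign: Slc27a1 over all cells in the same mix (0.10), Slc39a12 in CD206+-marker cells after thinning (0.67) and Slc24a1 in graph clusters (0.02). The uncalled Slc6a6 ratio (-0.13) was 0.02 without the interferon-activated state and 0.03 in the same mix, and 4 uncalled ratios of a state to other cells turned negative with doubled gates: Slc41a2 (-0.02), Slc41a3 (-0.11), Slc7a1 (-0.01) and Slc44a1 (-0.22). Counting each named gene under each alternative over all cells, 258 values kept their side of 1.5-fold, 38 lost the call with the same sign, 3 gained it and 1 reversed. The cause was not tested. The free-RNA amount first planned, from epithelial genes, came to 185% in the Tgfbr2-KO pool and was not usable. S100a8 and S100a9 replaced them, with upper amounts of 13.4% in the control and 10.6% in the Tgfbr2-KO pool. That replacement and the setting without interferon-marked cells were chosen after seeing the data.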
